A study of Mus musculus with 3 samples.

Results

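The genes described here are 9 members of the epidermal growth factor (EGF) family and its receptors in mouse stomach epithelium: the ligands Tgfa, Egf, Areg, Hbegf, Ereg and Btc, and the receptors Egfr, Erbb2 and Erbb3. They were chosen by name, and all probe sets that the platform's gene table assigns to 1 of them and to no other gene were taken, which gave 19 of 34958 probe sets naming 1 gene. These covered 8 of the 9 genes, because no listed probe set names Areg, which was therefore not analysed here. The RNA came from 3 cell lineages of the corpus, each hybridised to 1 Affymetrix mouse genome array: the acid-secreting parietal cells, the zymogenic or chief cells that release pepsinogen, and the mucous pit cells near the mouth of each gland. Laser capture with a 7.5 µm spot yielded 3000 to 5000 cells per lineage out of 4 to 5 mice, and 20 ng of RNA pooled over mice was amplified per array. Parietal cells were picked by DBA lectin binding and autofluorescence in the pit zone, pit cells by E-cadherin without DBA in the same glands, and zymogenic cells by E-cadherin without DBA or GSII in the gland base on separate slides. No treatment, genotype, strain, sex or age is given in the sources used here for any of the 3 groups. The labels call the molecule nuclear RNA and the design text calls it total RNA.

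EGF family ligands are made as membrane-anchored precursors, and metalloproteases of the ADAM family cut them loose from the cell surface. The free ligand joins receptor chains of the ErbB family into pairs, which phosphorylate each other and pass the signal through adaptors to the RAS, MAP kinase and PI3 kinase cascades. Erbb2 has no known ligand of its own and serves as a partner, while Erbb3 binds neuregulins and has little kinase activity of its own. In the stomach, transforming growth factor alpha (Tgfa) lowers acid secretion, and mice that overproduce it gain pit cells and lose parietal cells, as patients with Ménétrier disease do.

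Values are the authors' intensities on a linear scale, and a value of 23.3 was used as the detection floor. It is the 95th percentile of 80 olfactory and vomeronasal receptor probe sets, taken from the array where that was highest, and values below it have no order. For folds, lower values were raised to the floor, so a fold against them is a lower bound. Each lineage has a single array, so replicate error is unknown, no test was made, and every difference describes these 3 arrays. The only measure of scatter is technical: different probe sets of 1 gene, each above the floor on both arrays, gave log2 ratios between arrays with an SD of 0.479. A 2-fold difference, or 1 on the log2 scale, is about 2 of these SDs and was the size used here. This SD leaves out error that the probe sets of a gene share on an array. It also does not cover values at or under the floor. In such pooled RNA, fewer expressing cells and less RNA per cell cannot be told apart.

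The arrays bore the markers of their labels unevenly. The 9 zymogenic markers, which include Pgc and Cblif, were all above the floor on the zymogenic array and summed to 26489 there, to 3698 in parietal and to 420 in pit cells. All 7 measured pit markers, which include Muc5ac and Gkn1, were above the floor on both the pit array (sum 14491) and the parietal array (sum 19966), against 1 of 7 on the zymogenic array (sum 124). Gkn1 and Gkn2 carried most of the parietal sum, and the median of the 7 was 926 in pit against 425 in parietal cells. Parietal markers had sums of 5896 in parietal, 1363 in zymogenic and 574 in pit cells, with 4402 of the parietal sum from the proton pump subunit Atp4b. Of the 8 above the floor, 3 were highest in parietal, 3 in zymogenic and 2 in pit cells. The other pump subunit, Atp4a, read 214 in parietal and 261 in zymogenic cells. Measured markers of endothelium and red blood cells were under the floor on all 3 arrays. Of other cell types, 3 of 5 fibroblast markers exceeded it (sums 276 in parietal, 126 in zymogenic and 76.3 in pit cells), as did 2 of 4 smooth muscle markers (116, 195 and 131), 4 of 5 immune markers (198, 208 and 83.0) and both measured mucous neck markers (413, 30.4 and 139). Over the 1186 genes above the floor on every array, the median log2 difference was -0.64 for zymogenic minus parietal, -0.21 for zymogenic minus pit and -0.29 for pit minus parietal. Of the spiked controls, BioB and BioC had a mean of 359 in the parietal hybridisation, below the 798 and 784 of the zymogenic and pit ones. Scaling to them is given where it ends a difference of 2-fold. It raised the parietal array as a whole against the others. Over the 1146 genes then above the floor on every array, the median log2 difference was -1.38 for pit minus parietal. For zymogenic minus parietal it was -1.74, and for zymogenic minus pit -0.20.

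Most of the family lay under the floor. Of the 19 probe sets, 5 exceeded it on at least 1 array (26.3%, against 14.7% of all named probe sets), and the other 14 ranged from 0.622 to 20.1. Only 3 genes were represented among the 5: the ligand Tgfa with 1 of its 3 probe sets, the receptor Egfr with 3 of 7 and the receptor Erbb3 with 1 of 2. Egf, Hbegf, Ereg, Btc and Erbb2 were under the floor on all arrays with every probe set. Probe sets nearest to the floor were Egf 1418093_a_at below it, at most 20.1, and Egfr 1435888_at above it, at most 27.6. The plot of all member probe sets shows the lone Tgfa value far to the right of the rest.

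**Figure D1:**
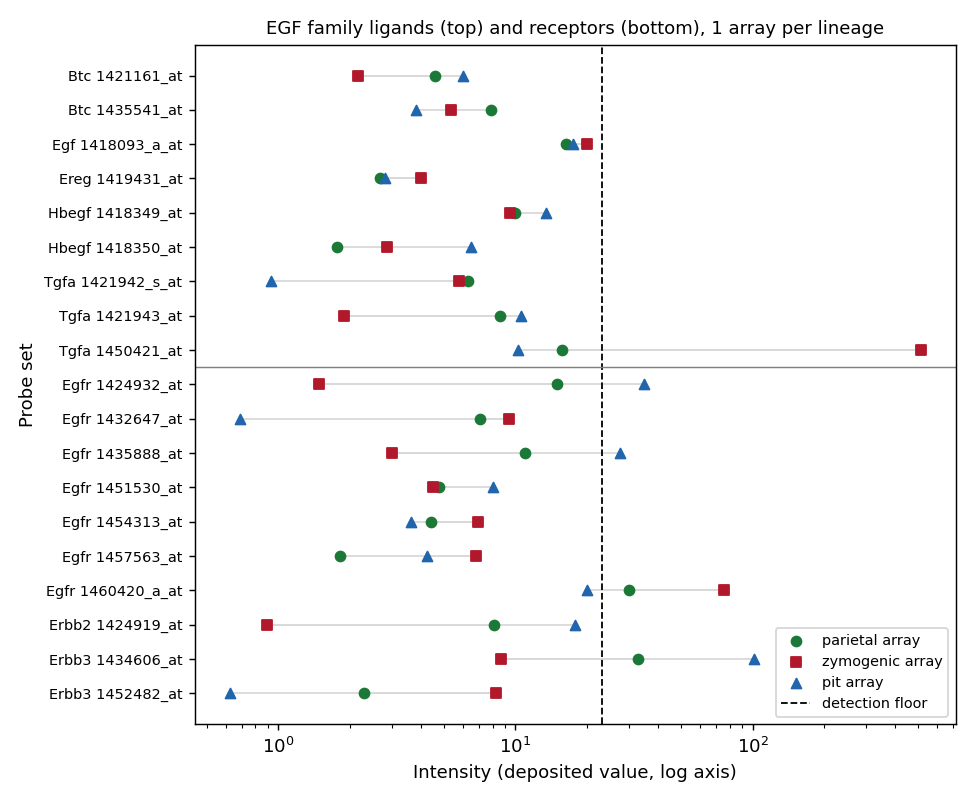
Intensity of each EGF family probe set on the parietal (circles), zymogenic (squares) and pit (triangles) arrays, 1 array per lineage, on a log axis with the detection floor of 23.3 dashed and ligands above receptors. Tgfa 1450421_at reaches 513 on the zymogenic array, and 14 of the 19 probe sets stay under the floor throughout.

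Among the ligands, Tgfa stood out on the zymogenic array. Its probe set 1450421_at read 15.8 in parietal, 513 in zymogenic and 10.2 in pit cells. Only the zymogenic value was above the floor, at least 22.1-fold above both others (log2 4.46), and it ranked at the 99.86th percentile of named probe sets on its array. Had the floor been set by the olfactory and vomeronasal 99th percentile instead (868), this and every other member value would have lain below it. The other 2 Tgfa probe sets did not share it. Probe set 1421942_s_at read 6.30 in parietal, 5.75 in zymogenic and 0.927 in pit cells. Probe set 1421943_at read 8.57, 1.90 and 10.5 in the same order. Both were under the floor on the zymogenic array, so the rise rests on a single probe set, although all 3 come from 1 source sequence in the platform's table. Such a split is common here: of 214 genes with several probe sets and at least 1 of them past 2-fold in zymogenic cells against both other lineages, 142 (66.4%) had all remaining ones under the floor on every array. A second one was also 2-fold higher for 17 (7.94%).

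Like Tgfa, 7 of 9 zymogenic and 4 of 8 endocrine markers led both other lineages by 2-fold or more in zymogenic cells. Of all genes, 1.57% did so. Of the 8 endocrine markers, 5 were above the floor on the zymogenic array, 1 on the pit array and 0 on the parietal array. Their intensities summed to 960, 96.6 and 54.3 in that order. Chga, a secretory granule protein, read 453 in zymogenic cells against 22.7 in parietal and 14.1 in pit cells, and Ghrl, the precursor of ghrelin, read 298 against 7.43 and 29.2. The markers Gast, Scg5 and Pcsk1 were under the floor on all 3. Of the 5 immune markers, only the B cell marker Cd79a was 2-fold higher there, at 48.8 against 0.453 in parietal and 4.99 in pit cells. Cd74 and Lyz2 were highest on the parietal array (166 and 25.1, against 119 and 14.2 in zymogenic cells). Ptprc read 23.7 in zymogenic cells, just above the floor, and Cd3e was under it on every array. The part of endocrine and immune cells in the Tgfa value was not tested. By the largest log2 difference over the 3 arrays, with low values raised to the floor, the genes nearest to Tgfa were Cblif, the gastric intrinsic factor (0.12), Chga (0.18) and Gm17750 (0.23). Cblif read 2.62 in parietal, 558 in zymogenic and 3.18 in pit cells. Cblif is a zymogenic and Chga an endocrine marker. Both, like Tgfa, were under the floor on the parietal and pit arrays, so these distances compare only brightness on the zymogenic array. The nearest genes were picked by this distance from 18194 genes, so its small size follows from the choice.

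The other measured ligands gave no value above the floor. Egf, which acts on Egfr and is known from saliva and urine, came closest, with 16.3 in parietal, 20.1 in zymogenic and 17.5 in pit cells. Hbegf, the heparin-binding ligand that also serves as the diphtheria toxin receptor, read 9.96 in parietal, 9.46 in zymogenic and 13.4 in pit cells with its brighter probe set and at most 6.52 with the other. Btc (betacellulin) read at most 7.89 over both of its probe sets. Ereg (epiregulin) read at most 3.99. Levels under the floor are bounds on what these arrays could show and do not order the lineages. In the RefSeq gene table of GRCm38, used here for gene order only, Epgn, Ereg, Areg and Btc lie in that order with 0 protein-coding genes between neighbours. Of this cluster, Epgn, Ereg and Btc were measured and were under the floor on every array.

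Among the receptors, Erbb3 was highest on the pit array. Its probe set 1434606_at read 32.9 in parietal, 8.66 in zymogenic and 101 in pit cells. The pit value was 3.08-fold above the parietal value (log2 1.62) and at least 4.36-fold above the zymogenic one, which was under the floor. It ranked at the 98.11th percentile on its array. The second probe set, 1452482_at, comes from another source sequence and was under the floor throughout, at 2.31 in parietal, 8.29 in zymogenic and 0.622 in pit cells. Of 173 genes with several probe sets and at least 1 of them past 2-fold in pit cells against both other lineages, 111 (64.2%) likewise had the remaining ones under the floor on all arrays. With the arrays scaled to BioB and BioC, the Erbb3 values were 56.1 in parietal, 6.58 in zymogenic and 78.2 in pit cells. Pit and parietal arrays were then less than 2-fold apart (log2 0.48), and zymogenic remained the lowest.

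The genes nearest to Erbb3 over the 3 arrays were Cgref1 (largest log2 difference 0.046), St14 (0.11), a membrane serine protease of epithelia, and Scnn1a (0.14), a subunit of the epithelial sodium channel. Scnn1a read 31.3 in parietal, 7.98 in zymogenic and 112 in pit cells. Of the 7 pit markers, 5 were highest on the pit array, as Erbb3 was, and Gkn1 and Gkn2 on the parietal array.

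Egfr, the receptor that Tgfa, Egf and Areg bind, was not highest on the same array with all of its probe sets, though only 1 of them passed 2-fold against both other lineages. Probe set 1460420_a_at, whose suffix marks it as shared by several transcripts of 1 gene, read 30.2 in parietal, 76.0 in zymogenic and 20.1 in pit cells. The zymogenic value was 2.52-fold above the parietal one (log2 1.33) and at least 3.27-fold above the pit one. Probe set 1424932_at read 15.0 in parietal, 1.48 in zymogenic and 34.8 in pit cells. Probe set 1435888_at read 10.9, 3.00 and 27.6 in the same order. On both of these only the pit array passed the floor, by 1.5-fold and 1.19-fold, short of the 2-fold size used here. The remaining 4 stayed below the floor everywhere, at most 9.38. The 7 come from 5 source sequences, and of the 3 above the floor, 1 was highest in zymogenic and 2 in pit cells.

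The lineage that carries most Egfr message is thus not settled by these arrays. The reading of 1460420_a_at depended on the scaling, since with BioB and BioC its values were 51.5 in parietal, 57.7 in zymogenic and 15.5 in pit cells, which left zymogenic and parietal less than 2-fold apart (log2 0.17) and the pit array lowest. Egfr was among the 55 of the 214 genes (25.7%) with a probe set past 2-fold in zymogenic cells that had a further one above the floor but none also 2-fold higher. By its brightest probe set, 1460420_a_at, Egfr lay nearest to Flii (largest log2 difference 0.090), Slc3a2 (0.19), the heavy chain of amino acid transporters, and Agpat3 (0.21).

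Erbb2, the partner receptor without a ligand, was measured by 1 probe set, which read 8.11 in parietal, 0.899 in zymogenic and 17.9 in pit cells, all under the floor. Erbb4, the fourth receptor, read at most 8.96. The neuregulins Nrg1, Nrg2, Nrg3 and Nrg4 are ligands of Erbb3, Erbb4 or both. They read at most 9.71, 7.93, 7.45 and 4.21 with their brightest probe sets. Erbb4, the neuregulins and Epgn (at most 7.41) are the 6 further ligand and receptor genes listed. Of these, 0 of 6 were above the floor (against 22.7% of all genes). On the array where Erbb3 was highest, no neuregulin was above the floor.

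In all, 2 of 19 probe sets (10.5%) led both other lineages by 2-fold or more in zymogenic cells, as did 0.927% of all named probe sets. In pit cells 1 of 19 did so (5.26%, against 0.769% of all), and in parietal cells 0 of 19 (against 1.16%). Lower by 2-fold or more against both other lineages were 0 of 19 each time, where the shares of all named probe sets were 0.0515% for parietal, 1.62% for zymogenic and 0.38% for pit cells. The counts are too small to set the family apart from other genes. They name Tgfa and Egfr on the zymogenic array and Erbb3 on the pit array, each by 1 probe set, and the plot by processing shows how far each difference moves with the scaling.

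**Figure D2:**
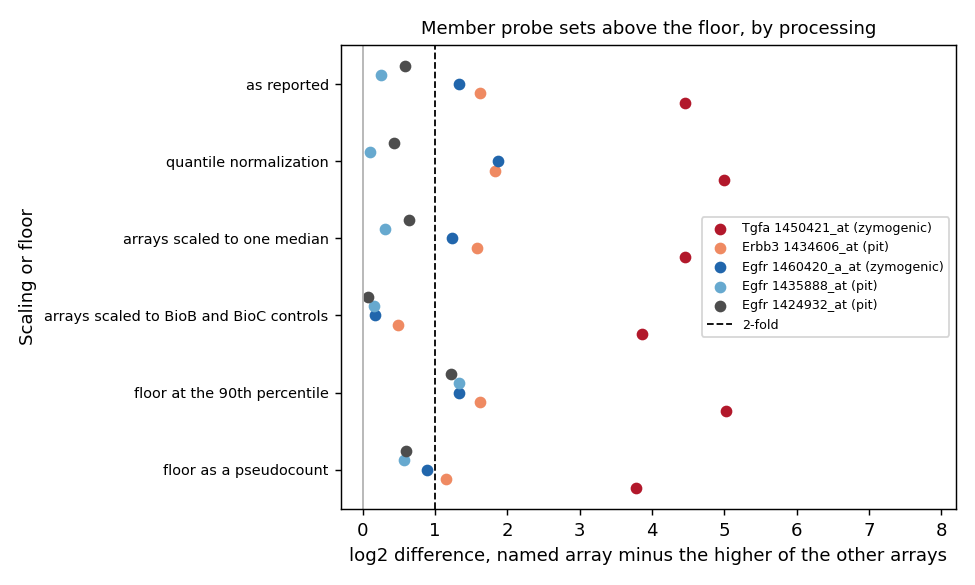
Log2 difference of the named array from the higher of the other arrays (horizontal axis) for the 5 member probe sets above the floor, under 6 choices of scaling and floor (rows), with 2-fold dashed. Tgfa lies between 3.78 and 5.02 in these rows, while Erbb3 and Egfr 1460420_a_at fall to 0.48 and 0.17 with the arrays scaled to BioB and BioC.

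The genes that shed, transmit and limit EGF receptor signals were described next, each by its brightest probe set. Of 96 listed, 91 were measured, and the others were not analysed here. Above the floor on at least 1 array were 38 of 91 (41.8%, against 22.7% of 18194 genes). Leading both other lineages by 2-fold or more were 3 of 91 in zymogenic cells (3.30%, against 1.57% of all genes), 6 in pit cells (6.59%, against 1.31%) and 0 in parietal cells (against 1.7%). Lower by that size were 4 in zymogenic cells (4.4%, against 2.52%), 0 in parietal cells (against 0.0879%) and 0 in pit cells (against 0.594%). These counts moved with the processing. With the arrays scaled to BioB and BioC, 1 gene was 2-fold higher in pit and 12 in parietal cells. The share of all genes past 2-fold under this scaling is not given here, so these 2 counts describe the lists only. Of the calls above, 1 of 6 remained in pit cells, 2 of 3 among those higher in zymogenic cells and 4 of 4 among those lower there. Probe sets specific to 1 transcript left 2 genes higher in pit cells. Among the 38 genes above the floor, 26 (68.4%) were highest on the pit array, where 34.0% of the 4138 such genes overall were, and 18 (47.4%) were above the floor in both other lineages and lowest in zymogenic cells, against 34.3%. With the arrays scaled to BioB and BioC, the parietal array was the highest for 40 of 53 such genes (75.5%, against 85.5% of all genes) and the pit array for 10 (18.9%, against 5.65%).

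**Figure D3:**
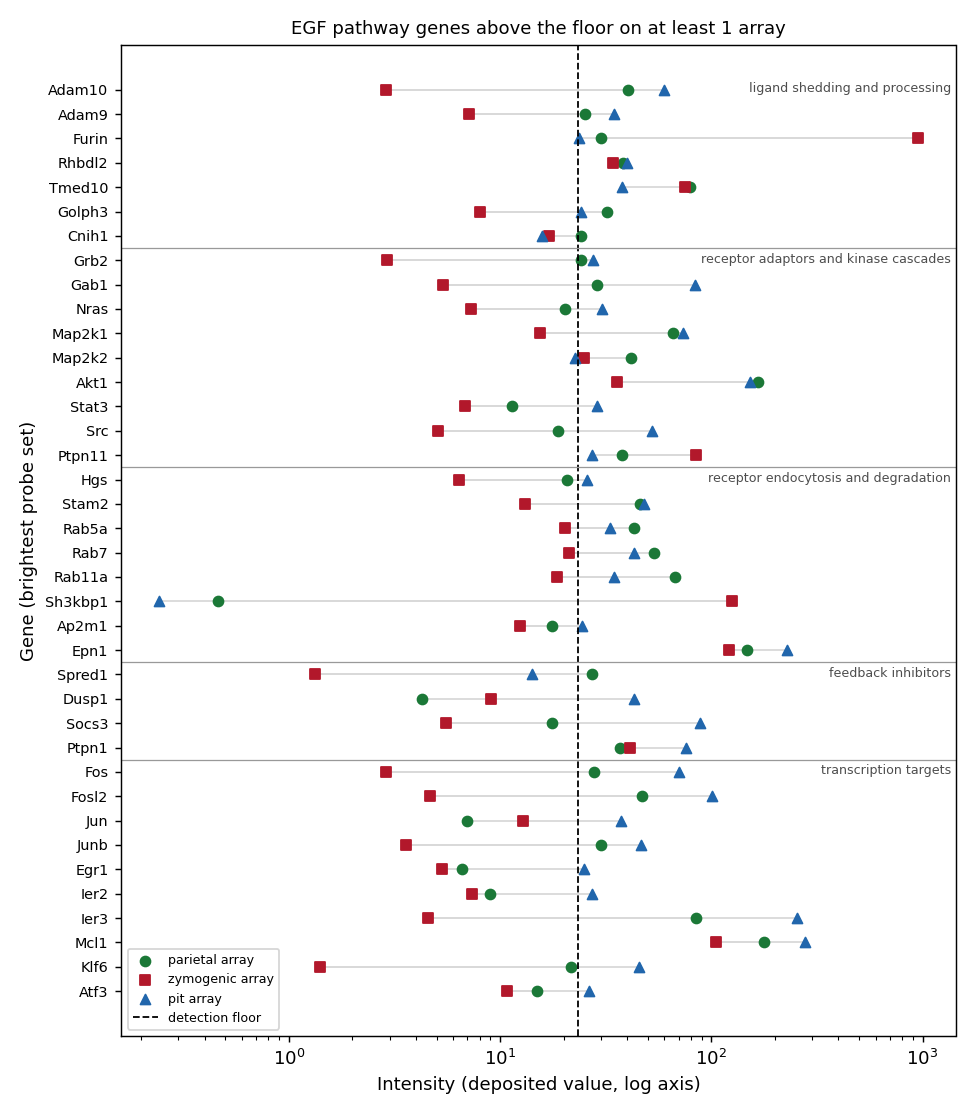
Intensity of the 38 pathway genes above the floor of 23.3 (dashed) on at least 1 array, on a log axis, by list, with 1 symbol per array. By their brightest probe set, the 10 transcription targets shown have their highest value on the pit array, and Furin stands apart at 948 on the zymogenic array.

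Of the genes that process ligands, 7 of 12 were above the floor (58.3%, against 22.7% of all genes) and 1 differed by 2-fold from both other arrays. Furin, a convertase that cuts the precursors of many secreted and membrane proteins, read 30.1 in parietal, 948 in zymogenic and 23.6 in pit cells, 31.4-fold above the higher of the others. It has 1 probe set. Adam10, a sheddase of EGF family ligands, read 40.3, 2.88 and 59.5 in that order, with pit and parietal arrays less than 2-fold apart. Adam17, the main sheddase of Tgfa, read at most 8.21, and the rhomboid-like proteins Rhbdf1 and Rhbdf2 that carry it to the surface read at most 22.3 and 14.3, so that none of these was above the floor on the array with the high Tgfa value. Tmed10, a cargo receptor of the early secretory pathway, read 79.5, 75.1 and 37.9.

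Of the adaptors and kinases, 9 of 23 measured were above the floor (39.1%, against 22.7% of all genes). The docking protein Gab1, which links receptors to PI3 kinase, read 28.8 in parietal, 5.36 in zymogenic and 83.3 in pit cells, 2.89-fold above the parietal array. The kinase Src read 18.9, 5.07 and 52.4, higher by at least 2.25-fold in pit cells. Both pit differences ended with the arrays scaled to BioB and BioC, at log2 0.39 for Gab1 and 0.33 for Src over the parietal array. The phosphatase Ptpn11, which promotes RAS signalling, went the other way, at 37.8, 85.0 and 27.3, or 2.25-fold above the parietal value in zymogenic cells, and the same scaling left no such difference (log2 0.0031). The kinases Map2k1 (65.8, 15.5 and 73.2) and Akt1 (167, 35.9 and 153) were lowest on the zymogenic array, by at least 2.83-fold and by 4.27-fold.

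Of 16 genes of receptor uptake and breakdown, 8 were above the floor (50.0%, against 22.7% of all genes). Only Sh3kbp1, an adaptor that joins the ubiquitin ligase Cbl to the endocytic machinery, differed by 2-fold from both other arrays. It read 0.461 in parietal, 125 in zymogenic and 0.243 in pit cells, higher by at least 5.37-fold in zymogenic cells. Its other 3 probe sets, and all those of Cbl, Cblb and Cblc, were under the floor throughout. Of 17 feedback inhibitors, 4 were above the floor (23.5%), near the 22.7% of all genes. Socs3, an inhibitor of cytokine receptors that EGF signals also induce, read 17.6, 5.57 and 88.9, higher by at least 3.82-fold in pit cells. The others above the floor were Ptpn1 (36.9, 41.3 and 76.0), Dusp1 (4.28, 9.04 and 43.1) and Spred1 (27.3, 1.34 and 14.2). None of them differed by 2-fold from both other arrays. Errfi1, Lrig1 and Dusp6, which restrain Egfr or the MAP kinases downstream of it, were among those under the floor on all arrays.

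Genes that growth factor signals switch on were the list most uniform in its order. Of 17, 10 were above the floor on at least 1 array with their brightest probe set (58.8%, against 22.7% of all genes). By it, all 10 had their highest value on the pit array, against 34.0% of all genes above the floor. Ccnd1 (cyclin D1) was not among the 10, but a dimmer probe set of it read 29.6 in parietal, 1.52 in zymogenic and 8.59 in pit cells, above the floor on the parietal array alone. The order held for 9 of 9 after quantile normalization, against 36.2% of all such genes. With the floor at the 90th percentile it held for 12 of 14 (85.7%, against 33.8%), and the other 2 were highest on the parietal array. With the arrays scaled to BioB and BioC, 8 of 13 were highest on the parietal array (61.5%, against 85.5% of all such genes). The pit array was then the highest for 5 (38.5%, against 5.65%). At least 2-fold above both others on the pit array were Fos (27.9 in parietal, 2.87 in zymogenic and 70.1 in pit cells), Fosl2 (46.8, 4.67 and 100.3) and Ier3 (85.0, 4.54 and 255), which are early response genes. With the arrays scaled to BioB and BioC these differences ended, at log2 0.19 for Fos, -0.046 for Fosl2 and 0.44 for Ier3 over the parietal array. Over genes above the floor on every array, the median pit minus parietal difference was then -1.38. Fosl2 and Ier3 were also at least 2.01-fold and 3.65-fold lower in zymogenic cells than in both other lineages. Mcl1, a survival protein, was highest on the pit array with 5 of its 6 probe sets, all above the floor, and with the brightest read 178, 105 and 278. Many other stimuli induce these genes, and that early response genes are high on this pit array was known from earlier results of the same data.

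Of the 11 pathway genes that differed by 2-fold from both other arrays, 4 have 1 probe set and 7 have further ones, none of which passed the same size in the same direction. A further probe set was above the floor for 1 of the 7, Fosl2, where it read 1.97 in parietal, 23.9 in zymogenic and 13.7 in pit cells, the zymogenic value being only just above the floor. As for Tgfa, Egfr and Erbb3, each of these differences therefore rests on 1 probe set and 1 array.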

How the data were processed

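The deposited table holds 1 intensity per probe set and array. How the authors summarised probes, corrected background and scaled the arrays is not given in the sources used here. Per the labels, RNA was pooled within each lineage, amplified and biotin-labelled. Of 45101 probe sets, 34958 name 1 gene in the platform's table, and the 932 that name several were left out. Symbols were updated through a RefSeq gene table for 34754. No scaling was added. The floor of 23.3 was computed from 80 receptor probe sets, and log2 was taken after raising lower values to it. Pathway genes were represented by the probe set of highest mean, and all of them that differed by 2-fold from both other arrays are named. The members, lists and alternatives were chosen with earlier results of these data known. Fold counting was tested on simulated data with less scatter than these arrays show and with changed genes well above the floor. That checks the counting only and cannot show how reliable 2-fold differences near the floor are. Alternatives concerned scaling, floor, pseudocount, fold and probe sets. The files used hold no probe or protein sequences. Python 3.11.15, numpy 2.4.6, pandas 2.3.3 and matplotlib 3.10.9 were used.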

Additional observations from a re-analysis of the deposited data

How the results depend on the processing

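Of 132 values recomputed under an alternative, 91 kept and 41 moved further. A value kept if it stayed within 1.5 times of a count, or within 1 SD of the probe set scatter for a log2 difference. Among them, 0 differences of 2-fold turned in direction, but only the log2 differences of member probe sets could turn, as counts cannot. Pathway differences were not among the 132, and Fosl2 moved to -0.046 over the parietal array with BioB and BioC scaling. With the arrays scaled to BioB and BioC, the family had 1 probe set 2-fold higher on the zymogenic array (Tgfa) and 0 on the pit array, with 1 lower on the pit array (Egfr) and 1 lower on the zymogenic array (Erbb3). The log2 differences were then 3.86 for Tgfa, 0.48 for Erbb3, 0.17 for Egfr 1460420_a_at and 0.070 for Egfr 1424932_at. Pathway genes numbered 12 higher on the parietal and 1 higher on the pit array, and 2 lower on the pit and 8 lower on the zymogenic array. The parietal array was then the highest for 85.5% of all genes above the floor. Under none of the alternatives is the share of all genes past 2-fold given here, so such counts describe the lists only. Scaling to one median gave 1 pathway gene higher on the parietal array. Quantile normalization gave 4.99 for Tgfa and 1.86 for Egfr 1460420_a_at. With a lower floor, the 90th percentile (10.9), 8 member probe sets were above it, 3 were higher on the pit array (Erbb3 and Egfr 1424932_at and 1435888_at, the latter at 1.21 and 1.34) and 1 lower on the zymogenic array. Tgfa was then at 5.02, and 12 pathway genes were higher on the pit and 13 lower on the zymogenic array. With a floor at the 99th percentile (868), 0 member probe sets exceeded it and every count and member difference was 0. With the floor as a pseudocount, Tgfa was at 3.78 and the only member 2-fold higher on the zymogenic array, 1 in number. A threshold of 4-fold left 1 member (Tgfa) higher on the zymogenic array, 0 members and 0 pathway genes higher on the pit array and 1 pathway gene lower on the zymogenic array. Probe sets specific to 1 transcript left 1 member higher on the zymogenic array and 2 pathway genes higher on the pit array. The cause of these moves was not tested. No paired analysis was possible because each lineage has 1 array, and for the same reason no replicate could be left out.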
